A study of Homo sapiens with 8 samples.

Results

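The 10 genes described here carry and restrain the signal of transforming growth factor beta (TGFB) inside the cell. They are SMAD1 to SMAD7, SKI, SKIL and PMEPA1, chosen by name as pathway members, with earlier results of these data known, and all 10 were found among the 24598 genes of the deposited table. Total RNA sequencing measured them 6 h after treatment in CCD-1077Sk, a fibroblast line from normal human skin. Cells given TGFB1 together with celastrol at 500 nM, cells given TGFB1 with DMSO, a common solvent, cells given celastrol at 500 nM with bovine serum albumin and citric acid, and control cells given albumin, citric acid and DMSO had 2 libraries each. They are called TGFB1 + celastrol, TGFB1, celastrol and control below. The design asks how celastrol, a plant triterpenoid known to induce the heat shock response, alters gene expression driven by TGFB1. The sources used here give no TGFB1 dose. One cell line stands for skin fibroblasts in all groups, and nothing in the labels says that libraries came from separate cultures, so each p-value measures only library spread, which may be technical.

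Active TGFB receptors phosphorylate SMAD2 and SMAD3, and receptors for bone morphogenetic proteins (BMPs) phosphorylate SMAD1 and SMAD5. The phosphorylated SMADs join SMAD4 and enter the nucleus to change transcription. The pathway also feeds back on itself, since SMAD7, SKIL and PMEPA1 are known target genes whose products block receptors, SMADs or their cofactors. In skin fibroblasts this pathway is known for driving matrix production and the change to myofibroblasts.

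Libraries held 20714351 to 42522255 estimated reads, and the lowest value of any of the 10 genes in any library came from 128 estimated reads, for SMAD6. Values are normalized reads, that is, estimated reads divided by 1 size factor per library, and all 10 genes passed the filter (10 or more normalized reads in 2 or more libraries). Of the fibroblast markers, 10 of 10 were in the table, with summed levels of 381771 to 674411 normalized reads per library. The keratinocyte markers KRT5, KRT14 and KRT1, the endothelial marker CDH5, the melanocyte markers TYR and DCT and the immune marker CD3E had no row. The summed levels of the 4 endothelial markers in the table were 354 to 465 normalized reads in the libraries with celastrol, against 52.7 to 98.9 in those without. For the 2 melanocyte markers in the table they were 95.7 to 134 and 8.75 to 14.1, and for the 2 keratinocyte markers the range over all libraries was 880 to 1065. The 3 immune markers in the table summed to 240 to 475 over all libraries. Genes listed at 0 numbered 59 to 125 in libraries with celastrol and 1878 to 2693 in those without. The part of these differences in the results below was not tested. In bulk RNA, fewer cells and less RNA per cell cannot be told apart.

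TGFB1 alone moved inhibitors in both directions, and lowered SMAD3. Relative to control, PMEPA1 was 19.0-fold higher, SMAD7 3.27-fold higher, SKIL 2.93-fold higher and SKI 1.37-fold higher, while SMAD6 stood at 0.182 and SMAD3 at 0.559 of the control level. These 6 of 10 genes passed the threshold (limma, adjusted p below 0.05 over the 22866 genes tested), 4 higher and 2 lower, where 23.5% of all genes tested were called in either direction, 12.8% higher and 10.6% lower. SMAD1, SMAD2, SMAD4 and SMAD5, which carry the signal of either receptor family, were not called. When libraries were scaled to a common total, which moved the median of all genes by -0.21, SMAD1, SMAD2 and SMAD4 were called lower with TGFB1 alone. On that scaling 29.8% of all genes were called, 1417 higher and 5399 lower. Adding celastrol to TGFB1 moved 9 of the 10 genes relative to TGFB1, 4 higher and 5 lower, but this comparison called 63.4% of all genes, 37.5% higher and 25.9% lower. Celastrol without TGFB1 also moved 9 of 10 relative to control, 4 higher and 5 lower, against 55.1% of all genes, 33.8% higher and 21.3% lower. The median log2 fold change of the 10 genes was 0.04 for TGFB1 against control, -0.08 for TGFB1 + celastrol against TGFB1 and -0.18 for celastrol against control, beside 0.00, 0.12 and 0.08 for all genes tested. These comparisons share libraries, so their values for a gene are not independent of each other. For TGFB1 against control, the libraries of the 2 groups did not overlap for 57.6% of all genes tested. That share was 80.7% for TGFB1 + celastrol against TGFB1 and 78.3% for celastrol against control. Any lack of overlap named for a gene below stands beside these shares.

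**Figure D1:**
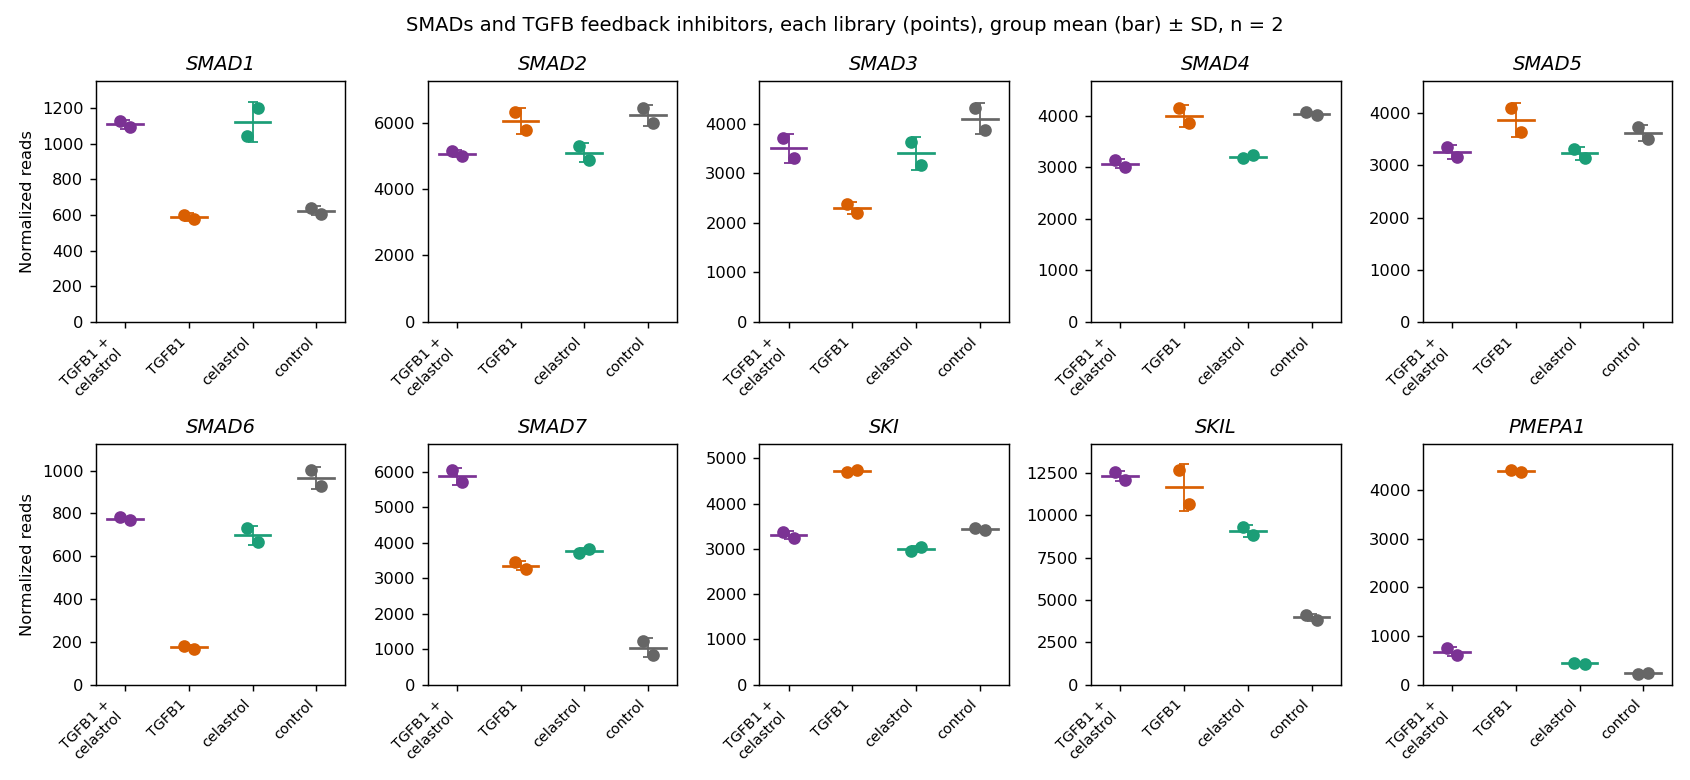
Normalized reads of each of the 10 genes in every library (points), with the group mean (bar) and SD (n = 2), for TGFB1 + celastrol, TGFB1, celastrol and control cells; each panel has its own axis from 0. PMEPA1 stands high with TGFB1 alone (4364 and 4397), SMAD6 stands low there (168 and 181), and SMAD7 is highest with TGFB1 + celastrol (5700 and 6031).

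**Figure D2:**
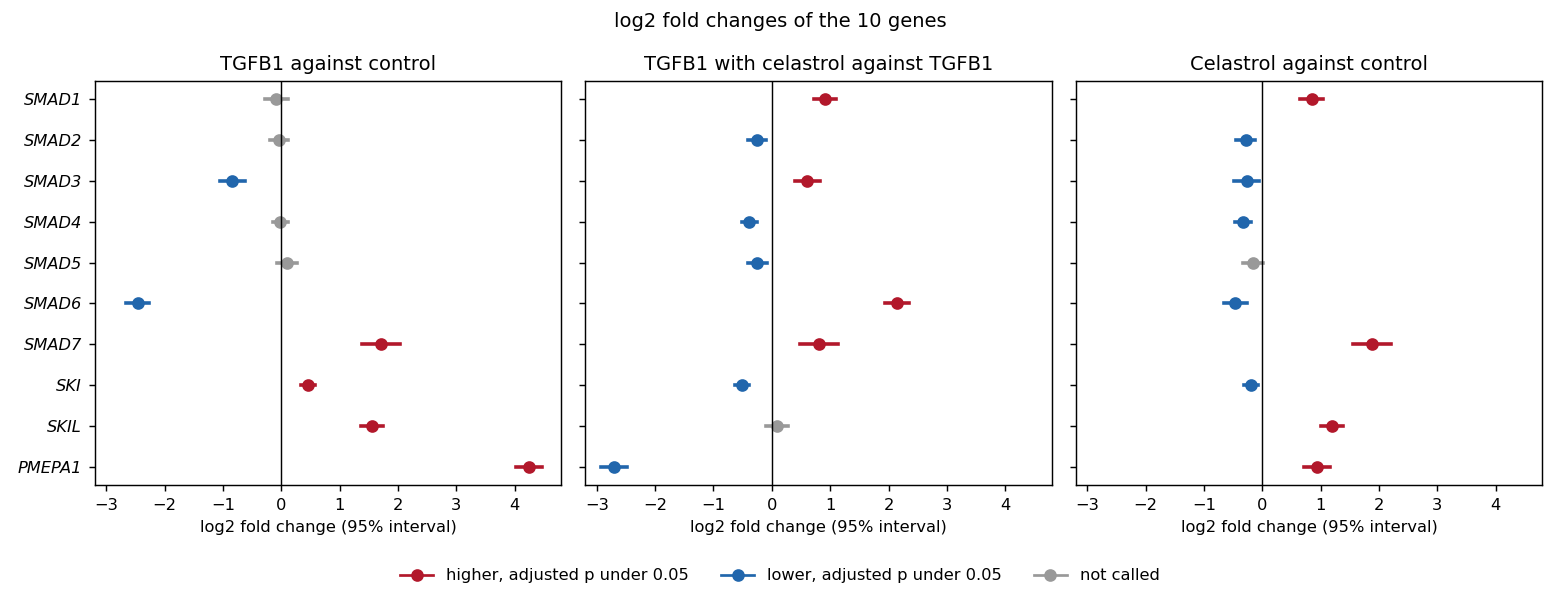
log2 fold change with its 95% interval for each of the 10 genes in 3 comparisons, coloured by whether limma called the gene higher, lower or neither. PMEPA1 (4.25) and SMAD6 (-2.46) lie farthest from 0 for TGFB1 against control, and both have the opposite sign for TGFB1 + celastrol against TGFB1 (-2.70 and 2.15).

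The sequences upstream of the 4 inhibitor genes with the largest fold changes are given first, with the letters known to bind SMAD proteins marked. They are the 250 bases before an annotated start, from RefSeq on GRCh38.p14, which held windows for 9 of the 10 genes, 23 in all. Windows were searched on both strands for the SMAD palindrome GTCTAGAC, the CAGA box core CAGAC or GTCTG, the AP-1 motif TGANTCA, and the heat shock element repeats GAANNTTC and TTCNNGAA. Capitals mark matches to any of these. SMAD6 has 1 window, SKIL 1, SMAD7 3 and PMEPA1 4; for SMAD7 and PMEPA1 the window of the first-listed start with a CAGA box core is shown, and which start the cells used was not measured.
SMAD6 (chr15:66701986-66702235, plus strand): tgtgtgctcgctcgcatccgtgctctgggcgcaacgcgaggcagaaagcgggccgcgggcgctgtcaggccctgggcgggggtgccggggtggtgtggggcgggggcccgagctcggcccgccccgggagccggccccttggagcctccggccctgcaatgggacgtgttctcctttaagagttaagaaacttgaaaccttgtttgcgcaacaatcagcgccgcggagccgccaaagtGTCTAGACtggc
SMAD7 (chr18:48950966-48951215, minus strand): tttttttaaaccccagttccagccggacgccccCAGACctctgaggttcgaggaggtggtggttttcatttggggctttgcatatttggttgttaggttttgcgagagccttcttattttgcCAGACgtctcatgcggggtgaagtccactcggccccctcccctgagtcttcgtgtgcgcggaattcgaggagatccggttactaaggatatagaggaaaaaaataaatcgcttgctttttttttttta
SKIL (chr3:170357465-170357714, plus strand): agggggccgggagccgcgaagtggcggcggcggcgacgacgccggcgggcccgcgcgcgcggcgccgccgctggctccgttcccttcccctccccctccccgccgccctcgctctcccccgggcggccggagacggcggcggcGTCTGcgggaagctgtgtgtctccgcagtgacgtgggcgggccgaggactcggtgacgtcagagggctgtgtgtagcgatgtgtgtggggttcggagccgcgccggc
PMEPA1 (chr20:57710578-57710827, minus strand): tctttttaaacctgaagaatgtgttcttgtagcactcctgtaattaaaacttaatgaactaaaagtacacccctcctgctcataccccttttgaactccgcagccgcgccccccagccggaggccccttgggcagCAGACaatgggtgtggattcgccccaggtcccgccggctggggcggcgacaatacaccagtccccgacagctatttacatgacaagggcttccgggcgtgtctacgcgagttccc

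The SMAD6 window holds the palindrome, from 12 to 5 bases before the start. It is 1 of the 23 windows of the genes (4.35%), beside 0.182% of all 35116 windows. TGFB1 alone lowered SMAD6, and no window of SMAD7, SKIL or PMEPA1 holds the palindrome. The SMAD7 and PMEPA1 windows were picked for a CAGA box core and hold 2 and 1, and the only SKIL window holds 1. Over all 23 windows of the genes, whether shown or not, 8 hold a CAGA box core (34.8%), beside 38% of all windows. These 8 belong to SMAD7, SKIL and PMEPA1, which rose with TGFB1 alone, to SMAD3, which fell, and to SMAD1, which was not called. The AP-1 motif is in 2 of the 23 windows, 1 of SMAD1 and 1 of SMAD3, beside 6.57% of all windows. GAANNTTC is in 2, of SMAD1 and SMAD5, beside 5.78%, and TTCNNGAA is in 3, of SMAD3, SMAD7 and PMEPA1, in windows not shown, beside 6.62%. A match describes letters only, and the palindrome contains the letters GTCT and AGAC without the fifth base of a CAGA box core.

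SMAD2 and SMAD3 are the SMADs that TGFB receptors phosphorylate. SMAD2 (chromosome 18, 47808957 to 47931146, hg38) had 5139 and 5005 normalized reads with TGFB1 + celastrol, 6336 and 5780 with TGFB1, 5306 and 4890 with celastrol, against 6451 and 6007 in control cells. All 4 libraries with celastrol lay below all 4 without, and the TGFB1 and control libraries overlapped. SMAD2 fell by 0.25 on the log2 scale with celastrol added to TGFB1 (SE 0.07, limma adjusted p = 0.0111) and by 0.29 with celastrol alone (SE 0.07, limma adjusted p = 0.00717). The celastrol-alone call was lost without celastrol replicate 2 (adjusted p = 0.0618) and without control replicate 1 (adjusted p = 0.0599). With TGFB1 alone its log2 fold change was -0.04 (95% interval -0.20 to 0.12).

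SMAD3 (chromosome 15, 67063763 to 67195169) had 3709 and 3300 normalized reads with TGFB1 + celastrol, 2377 and 2207 with TGFB1, 3638 and 3169 with celastrol, against 4322 and 3883 in control cells. The TGFB1 libraries were the lowest and the control libraries the highest, and the groups with celastrol lay between and overlapped each other. Of the 4 receptor-activated SMADs among the 10 genes, SMAD3 was the one called for TGFB1 against control, with a log2 fold change of -0.84 (SE 0.09, limma adjusted p = 0.00035). It was 1.53-fold higher with TGFB1 + celastrol than with TGFB1 (log2 0.61, SE 0.09, limma adjusted p = 0.000453). Celastrol alone gave -0.27 (SE 0.09, limma adjusted p = 0.0342), a call that was lost without celastrol replicate 2 (adjusted p = 0.228) and without control replicate 1 (adjusted p = 0.203). SMAD2 and SMAD3 thus differed in direction when celastrol was added to TGFB1, with 95% intervals of -0.41 to -0.10 for SMAD2 and 0.40 to 0.82 for SMAD3. On a common total SMAD2 was at -0.10 and not called (limma adjusted p = 0.27), while SMAD3 stayed called at 0.77. The SMAD2 call was also lost with no variance trend (limma adjusted p = 0.0615).

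SMAD1 and SMAD5 are the SMADs of BMP receptors, and they did not move together. SMAD1 (chromosome 4, 145481194 to 145559176) had 1127 and 1093 normalized reads with TGFB1 + celastrol, 603 and 575 with TGFB1, 1045 and 1203 with celastrol, against 642 and 606 in control cells. Every library with celastrol stood above every library without it. SMAD1 rose 1.88-fold with celastrol added to TGFB1 (log2 0.91, SE 0.08, limma adjusted p = 2.86e-05) and 1.80-fold with celastrol alone (log2 0.84, SE 0.08, limma adjusted p = 5.85e-05). Its difference with TGFB1 alone was -0.08 (95% interval -0.28 to 0.11). Both TGFB1 libraries lay below both control libraries, where 57.6% of all genes tested did not overlap in either direction.

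SMAD5 (chromosome 5, 136132845 to 136188747) had 3357 and 3156 normalized reads with TGFB1 + celastrol, 4106 and 3640 with TGFB1, 3323 and 3140 with celastrol, against 3728 and 3510 in control cells. The libraries with celastrol were the lower ones, by a margin that is small against the spread within the TGFB1 pair. It fell by 0.25 with celastrol added to TGFB1 (SE 0.07, limma adjusted p = 0.0168), and the -0.16 for celastrol alone was not called (limma adjusted p = 0.0916). The first call was lost when libraries were scaled to a common total (adjusted p = 0.331), as was that of SMAD2 (adjusted p = 0.27). Without TGFB1 + celastrol replicate 2 the adjusted p was 0.109 for SMAD5 and 0.0687 for SMAD2, and without TGFB1 replicate 1 it was 0.0995 and 0.0634.

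SMAD4 is the partner that both branches share. It lies on chromosome 18 from 51028394 to 51085045 and had 3131 and 3000 normalized reads with TGFB1 + celastrol, 4150 and 3848 with TGFB1, 3175 and 3232 with celastrol, against 4061 and 4011 in control cells. The libraries with and without celastrol did not overlap, and the TGFB1 libraries lay on both sides of the control libraries. SMAD4 fell by 0.38 with celastrol added to TGFB1 (SE 0.06, limma adjusted p = 0.000444) and by 0.33 with celastrol alone (SE 0.06, limma adjusted p = 0.00125). For TGFB1 alone the 95% interval of the log2 fold change was -0.15 to 0.12, and on a common total the log2 fold change was -0.24 (limma adjusted p = 0.0161).

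SMAD6 and SMAD7 are the inhibitory SMADs. SMAD6 is known mainly for restraining BMP signals and SMAD7 for restraining both branches by binding receptors and recruiting ubiquitin ligases. SMAD6 (chromosome 15, 66702236 to 66782849) had 782 and 770 normalized reads with TGFB1 + celastrol, 181 and 168 with TGFB1, 730 and 665 with celastrol, against 1001 and 928 in control cells. The TGFB1 libraries stood far below all others, and the TGFB1 + celastrol libraries were close above the celastrol libraries. SMAD6 fell by 2.46 on the log2 scale with TGFB1 alone (SE 0.09, limma adjusted p = 9.39e-07). With celastrol added to TGFB1 it was 4.43-fold higher than with TGFB1 (log2 2.15, SE 0.09, limma adjusted p = 5.13e-07). Celastrol alone lowered it by less, with a log2 fold change of -0.47 (SE 0.09, limma adjusted p = 0.00191).

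SMAD7 (chromosome 18, 48919853 to 48952052) had 6031 and 5700 normalized reads with TGFB1 + celastrol, 3439 and 3257 with TGFB1, 3703 and 3832 with celastrol, against 1234 and 847 in control cells. No pair of groups overlapped. The control libraries were the lowest and also the farthest apart in ratio. SMAD7 rose 3.27-fold with TGFB1 alone (log2 1.71, SE 0.14, limma adjusted p = 8.14e-05) and 3.68-fold with celastrol alone (log2 1.88, SE 0.14, limma adjusted p = 1.45e-05). With both agents it was 1.75-fold above TGFB1 alone (log2 0.81, SE 0.14, limma adjusted p = 0.00121). The call for TGFB1 alone was lost in a fit to the TGFB1 and control libraries only (adjusted p = 0.0571). The 2 inhibitory SMADs thus moved in opposite directions with TGFB1 and with celastrol alone, and in the same direction when celastrol was added to TGFB1.

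SKI and SKIL (also known as SnoN) are related nuclear proteins that bind SMAD complexes and repress their targets. SKI (chromosome 1, 2228319 to 2310213) had 3370 and 3241 normalized reads with TGFB1 + celastrol, 4703 and 4729 with TGFB1, 2950 and 3045 with celastrol, against 3456 and 3416 in control cells. The TGFB1 libraries stood above all others and the celastrol libraries below all others. SKI rose by 0.46 with TGFB1 alone (SE 0.05, limma adjusted p = 0.000404) and fell by 0.51 with celastrol added to TGFB1 (SE 0.05, limma adjusted p = 4.34e-05). The fall with celastrol alone was 0.20 on the log2 scale (SE 0.05, limma adjusted p = 0.0109), and it was lost without celastrol replicate 1 (adjusted p = 0.0541) and without control replicate 1 (adjusted p = 0.0666).

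SKIL (chromosome 3, 170357678 to 170396835) had 12535 and 12089 normalized reads with TGFB1 + celastrol, 12641 and 10682 with TGFB1, 9328 and 8830 with celastrol, against 4108 and 3834 in control cells. The TGFB1 + celastrol libraries lay within the range of the TGFB1 libraries, and every treated library was above both control libraries. SKIL rose 2.93-fold with TGFB1 alone (log2 1.55, SE 0.08, limma adjusted p = 7.67e-06) and 2.29-fold with celastrol alone (log2 1.19, SE 0.08, limma adjusted p = 8.2e-06). Its log2 fold change for TGFB1 + celastrol against TGFB1 was 0.08 (95% interval -0.11 to 0.27, limma adjusted p = 0.405), the only one of the 10 not called there. It was called when libraries were scaled to a common total (log2 0.24, adjusted p = 0.0367) and without TGFB1 replicate 1 (log2 0.20, adjusted p = 0.0367). SKI and SKIL both rose with TGFB1 alone, and with celastrol alone SKI fell and SKIL rose.

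PMEPA1 encodes a membrane protein that holds SMAD2 and SMAD3 away from the receptor. On chromosome 20 from 57648392 to 57711536, it had 744 and 607 normalized reads with TGFB1 + celastrol, 4397 and 4364 with TGFB1, 453 and 425 with celastrol, against 225 and 234 in control cells. No groups overlapped, and the TGFB1 libraries were more than 5 times as high as any other. PMEPA1 rose 19.0-fold with TGFB1 alone (log2 4.25, SE 0.10, limma adjusted p = 1.47e-07) and 1.91-fold with celastrol alone (log2 0.93, SE 0.10, limma adjusted p = 8.28e-05). With celastrol added to TGFB1 it fell by 2.70 on the log2 scale (SE 0.10, limma adjusted p = 3.53e-07).

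An antisense gene, NKILA, overlaps 343 exon bases of PMEPA1, which is 6.58% of its exons in GENCODE 29, and the sources used here do not say whether the authors' counting used strand. Without strand, reads in the shared bases cannot be told apart. NKILA had 152 and 124 normalized reads with TGFB1 + celastrol, 55.1 and 56.5 with TGFB1, 77.3 and 95.7 with celastrol, against 13.8 and 10.8 in control cells. It was thus highest where both agents were given, unlike PMEPA1, which was highest with TGFB1 alone. NKILA rose by 1.29 with celastrol added to TGFB1 (limma adjusted p = 0.00171). For the other genes, exons overlap with SMAD1-AS1 (376 bases of SMAD1), SMAD5-AS1 (610 bases of SMAD5) and AC091551.1 (814 bases of SMAD4). SMAD1-AS1 had no row, and neither of the other 2 exceeded 13.2 normalized reads in any library.

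The effect of TGFB1 in the presence of celastrol is read from TGFB1 + celastrol against celastrol. None of the 10 genes was called there (limma, adjusted p below 0.05), where 0.00875% of all genes tested were, 2 genes, 0.00437% higher and 0.00437% lower. At an unadjusted p below 0.05, 4 of the 10 were higher and none lower, where 3.8% of all genes were past that level and 2.06% were past it and higher. They were SMAD7 with a log2 fold change of 0.64 (limma, unadjusted p = 0.00195), SKIL with 0.44 (limma, unadjusted p = 0.000607), PMEPA1 with 0.61 (limma, unadjusted p = 0.00022) and SKI with 0.14 (limma, unadjusted p = 0.0242). These are the same 4 genes that TGFB1 raised in the absence of celastrol. The libraries of the 2 groups did not overlap for 6 of the 10 genes, 5 higher with TGFB1 + celastrol and SMAD4 lower, beside 33.8% of all genes, 16.7% higher. SMAD6, which TGFB1 lowered in the absence of celastrol, had a log2 fold change of 0.16 in its presence (95% interval -0.04 to 0.35).

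**Figure D3:**
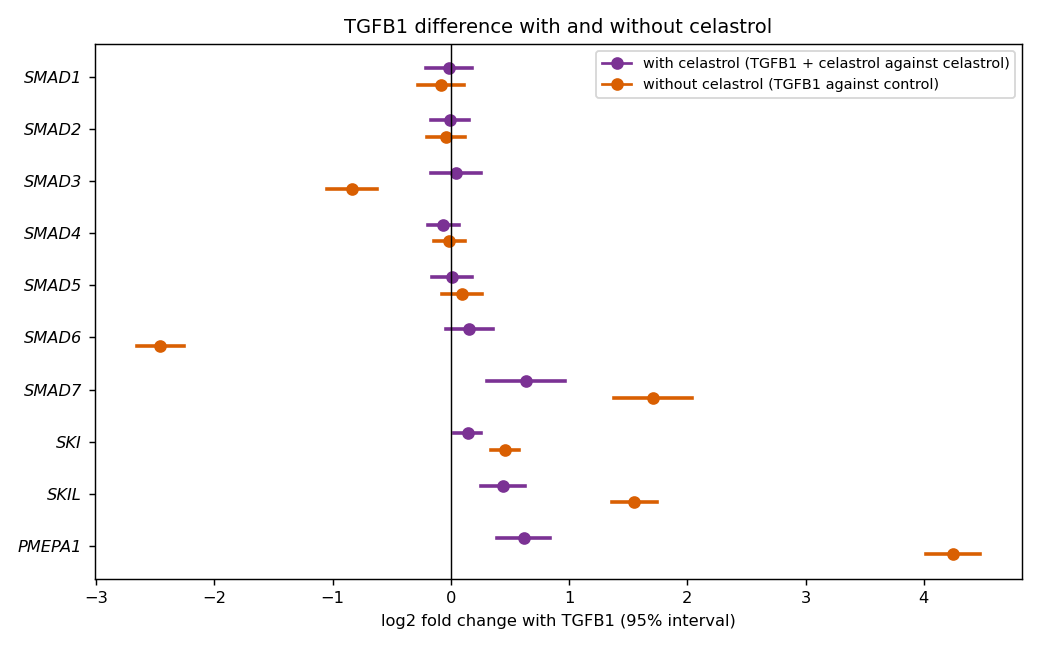
log2 fold change with TGFB1, with its 95% interval, in the presence of celastrol (TGFB1 + celastrol against celastrol) and in its absence (TGFB1 against control) for each of the 10 genes. PMEPA1 stands at 0.61 with celastrol and 4.25 without, SMAD6 at 0.16 and -2.46, and the intervals of SMAD1, SMAD2, SMAD4 and SMAD5 include 0 in both.

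Whether the TGFB1 difference depended on celastrol was tested directly by the interaction, which is also the test of whether the celastrol difference depended on TGFB1. It called 6 of the 10 genes, 2 higher and 4 lower, where 11.3% of all genes were called, 4.36% higher and 6.89% lower. The interaction was -3.63 for PMEPA1 (SE 0.14, limma adjusted p = 6.88e-06) and 2.61 for SMAD6 (SE 0.12, limma adjusted p = 1.57e-05), so both differences with TGFB1 were nearer to 0 with celastrol. It was -1.11 for SKIL (SE 0.12, limma adjusted p = 0.000723), -1.07 for SMAD7 (SE 0.20, limma adjusted p = 0.0122) and 0.88 for SMAD3 (SE 0.13, limma adjusted p = 0.00356). For SKI it was -0.32 (SE 0.07, limma adjusted p = 0.0273), a call that was lost when libraries were scaled to a common total (-0.08, adjusted p = 0.506). The call of SMAD7 was lost without either TGFB1 + celastrol library or either celastrol library (limma adjusted p = 0.0593 to 0.0852). That of SKI was lost without any single library other than TGFB1 replicate 1 (limma adjusted p = 0.0509 to 0.103). The 6 genes with an interaction are the 6 that TGFB1 alone moved, and both results rest on the TGFB1 and control libraries. The other 4 had interactions between -0.08 and 0.07, with 95% intervals within -0.32 and 0.34.

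Levels were compared between genes only per kilobase of exon. In control cells the order was SKI (612 ± 4.98 normalized reads per kb, SD, n = 2), SMAD3 (567 ± 42.9), SKIL (550 ± 26.8), SMAD4 (453 ± 3.96), SMAD5 (452 ± 19.3), SMAD1 (267 ± 10.6), SMAD6 (251 ± 13.4), SMAD7 (230 ± 60.4), SMAD2 (176 ± 8.90) and PMEPA1 (44.0 ± 1.19). Neighbours whose libraries overlapped were SMAD3 and SKIL, SMAD4 and SMAD5, SMAD1 and SMAD6, and SMAD6 and SMAD7. PMEPA1 was thus the lowest of the 10 in control cells and, with TGFB1, rank 3 at 840 ± 4.39 normalized reads per kb, overlapping SKI at 840 ± 3.29.

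With TGFB1 the highest was SKIL at 1615 ± 192 normalized reads per kb and the lowest SMAD6 at 45.5 ± 2.29, with SMAD7 rank 4 at 739 ± 28.4. With TGFB1 + celastrol the order began with SKIL (1705 ± 43.7), SMAD7 (1294 ± 51.7) and SKI (589 ± 16.2), and PMEPA1 was last at 130 ± 18.5 with libraries that overlapped those of SMAD2 (144 ± 2.69). With celastrol alone SKIL (1257 ± 48.8) and SMAD7 (831 ± 20.2) were again the highest and PMEPA1 (84.2 ± 3.78) the lowest. The level of SMAD2 per kb is understated, since its annotated exons add up to 35303 bases because of a long isoform, against 2338 to 8906 bases for the other genes.

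The genes with the most similar profiles were sought among 12270 named genes with a mean of at least 50 normalized reads. Likeness was the root mean square difference in log2 values over the 8 libraries, each gene centred on its own mean. Nearest to PMEPA1 was IL11, a cytokine known to be induced by TGFB in fibroblasts, at 0.13 (Pearson r = 0.997 over 8 libraries), followed by TSPAN2 at 0.41 and LIF at 0.47. IL11 had group means of 944 normalized reads with TGFB1 + celastrol, 6933 with TGFB1, 703 with celastrol and 318 in control cells. For SMAD7 the nearest were TBILA (0.11), MYOSLID (0.20) and LYPD1 (0.21), the first 2 of them long noncoding RNAs. SKIL was nearest to ITPRIP (0.15), PFKFB4 (0.17) and PXDC1 (0.17), and SMAD6 to SLC7A14 (0.21), SOCS2 (0.25) and RDH10 (0.25). The 8 points of each correlation share the separation of the libraries by treatment, so r is given as a description.

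**Figure D4:**
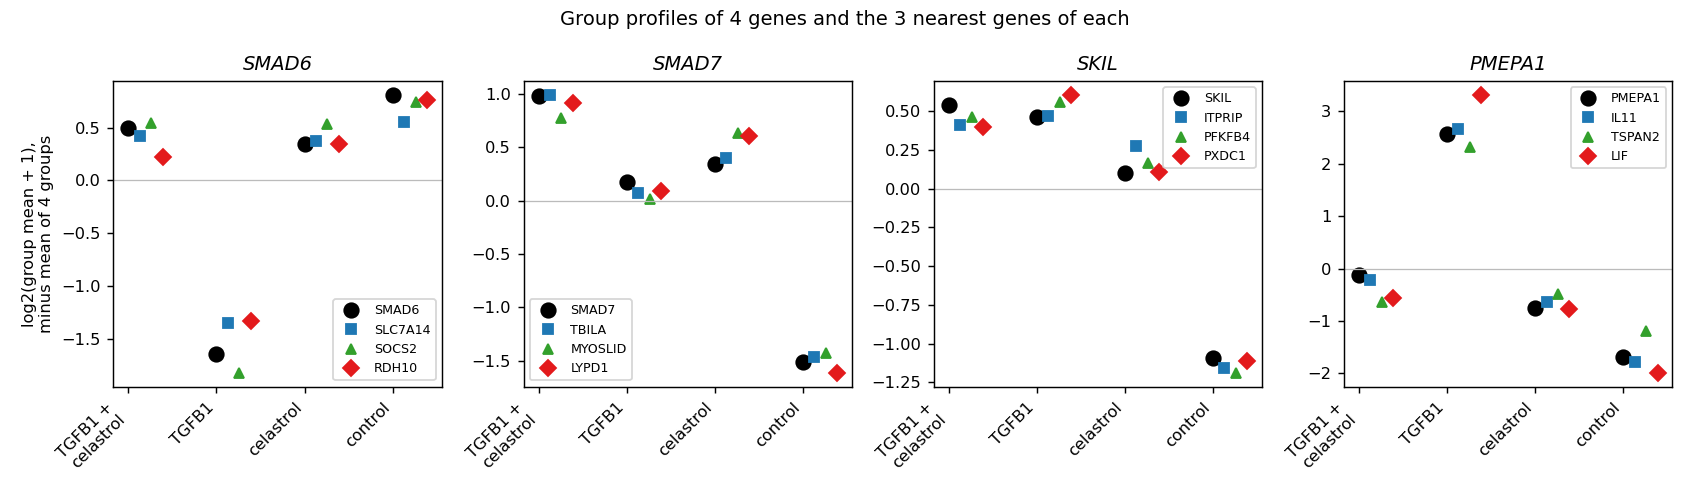
Group profiles of SMAD6, SMAD7, SKIL and PMEPA1 (circles) and of the 3 nearest genes of each (squares, triangles and diamonds), as log2(group mean + 1) minus the mean of the 4 groups. IL11 tracks PMEPA1 in all 4 groups, and SLC7A14, SOCS2 and RDH10 have, like SMAD6, the lowest group mean with TGFB1 alone.

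The other 6 genes had closer nearest neighbours. SMAD3 was nearest to SLC38A6 (0.05), SMAD1 to SBF2 (0.04), SKI to PA2G4 (0.03), SMAD4 to NHP2 (0.03), SMAD2 to FAM204A (0.03) and SMAD5 to RAB23 (0.02). Among the 10 themselves, the closest pairs were SMAD2 with SMAD5 and SMAD2 with SMAD4, at 0.06 each, and the pair farthest apart was SMAD6 with PMEPA1, at 2.53. SMAD7 and SKIL, which both rose with each agent alone, were 0.38 apart.

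The rest of the pathway was described by 5 lists: ligands and receptors (15 genes tested), ubiquitin and phosphate enzymes and anchors of SMADs (17), other inhibitors and cofactors (15), TGFB target genes (16) and BMP target genes (9 tested of 10 listed, HEY2 being below the filter). The lists were chosen with earlier results of these data known, so their counts are a description and not a test. With TGFB1 alone, 16 of 16 TGFB target genes rose, with a median log2 fold change of 2.35 beside 0.00 for all genes. Among them were JUNB (3.64), IL11 (4.44), BHLHE40 (2.92) and CCN2 (2.76). When libraries were scaled to a common total, 14 of the 16 were called, all higher, beside 29.8% of all genes, 1417 higher and 5399 lower. Of the BMP target genes 5 fell, including ATOH8 (-2.49), ID1 (-1.18), ID3 (-0.74) and SMAD9 (-0.94), the third BMP SMAD, and 2 rose. SMAD6, itself known as a BMP-induced gene, fell too. Ligands and receptors split into 6 higher and 3 lower of 15, beside 23.5% of all genes called in either direction. The TGFB1 gene itself (1.39), TGFB2 (1.21) and the BMP receptor BMPR2 (1.26) were higher and the co-receptor TGFBR3 (-2.02) lower. On a common total this list had 4 higher and 4 lower, beside 29.8% of all genes.

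Of the enzymes that mark SMADs and receptors for degradation, SMURF1 (1.12) and SMURF2 (0.94), ligases that act with SMAD7, rose with TGFB1 alone, as did ITCH (0.45), while NEDD4L (-0.83) fell. This list had 5 higher and 2 lower of 17, but 3 higher and 5 lower when libraries were scaled to a common total. For this list and the next, the share of all genes called was 23.5% (12.8% higher and 10.6% lower). On the common total that share was 29.8%, with 1417 genes higher and 5399 lower. The other inhibitors and cofactors had 5 higher and 1 lower of 15, including LDLRAD4 (2.44), a relative of PMEPA1, and LEMD3 (0.58), and 3 higher and 4 lower on the common total. That scaling moved the median of all genes by -0.21 for TGFB1 against control, and no called fold change of the 10 genes changed sign under it.

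The next counts stand beside 63.4% of all genes called for TGFB1 + celastrol against TGFB1, 37.5% higher and 25.9% lower. In that comparison 9 of 9 BMP target genes tested rose, with a median of 1.21 beside 0.12 for all genes. Among them were HEY1 (3.68), ID2 (2.24), MSX1 (1.30) and ID4 (1.21). Of these 4, only ID2 had been called lower with TGFB1 alone, and none had a called interaction. After centring libraries on their medians 7 of the 9 were called, all higher, beside 70.2% of all genes, 6956 higher and 9094 lower. SMAD6 moved the same way as the BMP target genes. TGFB target genes split into 7 higher and 8 lower of 16, with IL11 (-2.88), CCN2 (-2.57), TGFBI (-2.60) and ELN (-4.37) lower, so PMEPA1 lay with one side of that list and SMAD7 with the other. The enzymes had 1 higher and 11 lower of 17, with SMURF2 (-1.24), ITCH (-0.67) and USP15 (-0.50) lower and NEDD4L (1.34) higher. Ligands and receptors had 4 higher and 7 lower of 15, with TGFBR3 (2.73) higher and the TGFB1 gene (-1.72), BMPR2 (-1.14) and ENG (-0.69) lower. Other inhibitors had 9 higher and 5 lower of 15, with the decoy receptor BAMBI (2.82) and the repressor TGIF1 (1.58) higher. After centring the split was 6 higher and 6 lower, beside the 70.2% of all genes called on that scaling.

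For celastrol against control the counts stand beside 55.1% of all genes called, 33.8% higher and 21.3% lower. With celastrol alone, 10 of 16 TGFB target genes rose and 1 fell, including BHLHE40 (3.66), JUNB (3.46), KLF10 (3.24) and MYC (1.68), as SMAD7, SKIL and PMEPA1 did. Other inhibitors had 9 higher and 1 lower of 15, with BAMBI (2.19) and TGIF1 (1.57) higher. The enzymes had 2 higher and 8 lower of 17, in all near the share of all genes called in either direction, with SMURF1 (0.71) higher and SMURF2 (-0.38) lower. BMP target genes had 5 higher and 3 lower of 9, with HEY1 (4.30), ID4 (1.92), ID2 (1.62) and MSX1 (1.60) higher. Ligands and receptors had 4 higher and 3 lower of 15, among them BMPR1B (3.82). The interaction called 11.3% of all genes, 4.36% higher and 6.89% lower. There 13 of 16 TGFB target genes were lower and none higher, as 4 of the 10 genes described here were. Of the BMP target genes, 4 of 9 were higher and none lower, as SMAD6 was. After centring, 4 BMP target genes were higher and 1 lower, beside 15.4% of all genes called. No gene of the 5 lists was called for TGFB1 + celastrol against celastrol.

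**Figure D5:**
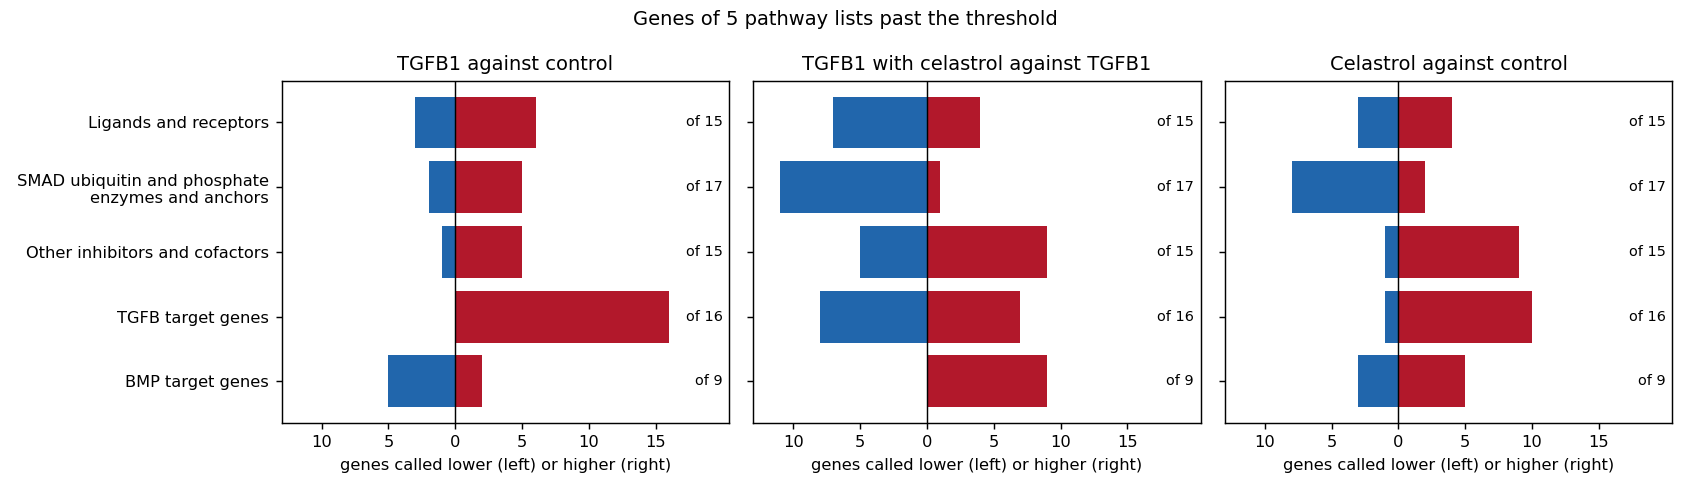
Number of genes called higher (right, red) and lower (left, blue) by limma in each of the 5 pathway lists, for 3 comparisons, with the number tested at the right. The lists were chosen with earlier results of these data known. TGFB target genes are 16 higher and 0 lower for TGFB1 against control and 7 higher and 8 lower for TGFB1 + celastrol against TGFB1, and BMP target genes are 2 higher and 5 lower and then 9 higher and 0 lower.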

How the data were processed

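RNA of 8 libraries in 4 groups of 2 was analysed from the processed table. The deposited signal is 1 normalized value per gene and library, for 24598 genes, made by the authors; the submitters' processing notes name STAR 2.7.3a, DESeq2, Partek 10.0.22 and build hg38 without roles, and the sources used here give neither the counting rule nor its use of strand. From the values, the deposited signal was read as estimated reads divided by 1 size factor per library, not scaled by length. Between 76.1% and 79.1% of values below 60 were whole reads within 0.02, so no count model was fitted. Depth was 38574145 and 24398286 estimated reads with TGFB1 + celastrol, 21154582 and 24593682 with TGFB1, 34871707 and 22614693 with celastrol, against 20714351 and 42522255 in control cells. No gene whose highest value lay below 11 estimated reads is in the table.

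Values were taken as log2(value + 1), which understates fold changes of low genes. Genes with at least 10 in at least 2 libraries were tested (22866). limma 3.58.1 (R 4.3.3) fitted the 4 group means over all 8 libraries with a variance trend, 4 residual degrees of freedom, two-sided tests and Benjamini-Hochberg adjustment over all genes within each of 5 comparisons; calls are at 0.05. All adjusted p-values come from this fit unless an alternative is named. The code was tested on simulated data. Alternatives were other scalings, pseudocounts of 0.25 and 8, filters, no variance trend, a replicate block, the compared libraries only, and leaving out each library. The 10 genes, the pathway lists and the motifs were chosen with earlier results of these data known. Named were the 10 genes, at most 4 called genes per list and comparison with the smallest p, and genes that a sentence on counts needed. The 3 nearest profiles were also named, leaving out symbols of clones, noncoding antisense and pseudogenes. Exons are from GENCODE 29 and upstream windows from RefSeq on GRCh38.p14. Sample titles gave the replicate numbers, although a second label numbers celastrol replicate 2 as 3.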

Additional observations from a re-analysis of the deposited data

Results flagged for a closer look

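For 6 of the 10 genes the difference made by celastrol with TGFB1 present differed from that without TGFB1, by the limma interaction term over all genes tested. That term called 11.3% of all genes, 4.36% higher and 6.89% lower. The interaction values below are log2 fold changes with TGFB1 minus those without. For PMEPA1 the interaction was -3.63, from -2.70 with TGFB1 and 0.93 without, opposite in sign. For SMAD6 it was 2.61, from 2.15 and -0.47, and for SMAD3 0.88, from 0.61 and -0.27, both opposite in sign. For SMAD7 it was -1.07, from 0.81 and 1.88, the same sign in both. For SKIL it was -1.11, from 0.08, which was not called, and 1.19. For SKI it was -0.32, from -0.51 and -0.20, both lower, and on a common total it was -0.08 and not called (limma adjusted p = 0.506). All 4 groups enter each interaction, so 1 library of 8 can move it; the adjusted p of SMAD7 and SKI crossed 0.05 without single libraries. Explanations were not tested.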

How the results depend on the processing

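Over 840 refits of 50 gene comparisons, 800 kept direction and side of the threshold, 32 lost the call, 8 gained it and 0 changed direction when called; 37 of the 50 comparisons never changed call. The number of all genes called was 5364 for TGFB1 against control, 1684 with the compared libraries only, and 3248 to 4757 without single libraries. For TGFB1 + celastrol against celastrol it was 2, and 0 after centring, with a pseudocount of 0.25 or with no filter, 1 with a pseudocount of 8, a filter at 50, no variance trend, the replicate block or the compared libraries only, and 0 to 0 without single libraries. For the interaction it was 2573, 1245 with no variance trend, and 1189 to 2715 without single libraries. Without single libraries the number of called members was unchanged for TGFB1 against control and for TGFB1 + celastrol against celastrol. It varied in the other comparisons, as did the number of all genes called. Each such fit leaves 1 library in a group.

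Scaling moved the split of all genes. For TGFB1 against control it was 2937 higher and 2427 lower, 1417 and 5399 on a common total, and 4778 and 1775 centred. For TGFB1 + celastrol against TGFB1 it was 8564 and 5933, 9809 and 4183, 6956 and 9094, and 4990 and 5472 with the filter at 50. For celastrol against control it was 7737 and 4868, 7286 and 6068, 6751 and 7470, and 4619 and 4351 with the filter at 50. For the interaction it was 997 and 1576, 2474 and 801, 784 and 2748. On a common total SMAD1 (-0.31, adjusted p = 0.022), SMAD2 (-0.27, adjusted p = 0.0239) and SMAD4 (-0.24, adjusted p = 0.0161) were also called lower for TGFB1 against control, and SMAD5 (-0.24, adjusted p = 0.0227) for celastrol.

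With no variance trend the calls of SMAD2 and SMAD5 for celastrol with TGFB1, of SMAD3 and SKI for celastrol alone, and of SMAD7 and SKI in the interaction were lost. Same-numbered libraries deviated together only weakly over all genes tested (correlations of 0.05 to 0.082 over 6 pairs of groups). Such weak values cannot decide whether the numbers pair the libraries. For SMAD2, SMAD3, SMAD5, SMAD6 and SKIL, replicate 1 was above replicate 2 in all 4 groups. The replicate block lowered the SE of SMAD3 for TGFB1 against control from 0.092 to 0.048. That of SMAD2 fell from 0.069 to 0.046 and that of SKIL from 0.083 to 0.054. With the replicate block 6542, 15312, 13548, 1 and 3665 genes were called, and among the 10 genes only SMAD5 for celastrol alone changed (adjusted p = 0.0167). Precision is limited by 2 libraries per group. Causes were not tested.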

Other observations

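SMAD6 and SMAD3 are neighbours on chromosome 15, 280913 bases apart, and both were lower with TGFB1 and higher with TGFB1 + celastrol than with TGFB1. Protein-coding genes near them differed from each other in direction. DIS3L, on the SMAD6 side, had log2 fold changes of -1.15 (limma adjusted p = 5.04e-05) for TGFB1 and 1.32 (limma adjusted p = 5.26e-06) for celastrol added to TGFB1. MAP2K1, also on that side, had 0.52 (limma adjusted p = 0.00131) and -0.44 (limma adjusted p = 0.000743). ZWILCH, nearer to SMAD6, had -0.03 and 0.02 and was not called in either. AAGAB, next to SMAD3 on the other side, had 0.13 (limma adjusted p = 0.204) and -0.37 (limma adjusted p = 0.00119). MAP2K5, farther out on the AAGAB side, had -0.47 (limma adjusted p = 0.0266) and 0.40 (limma adjusted p = 0.0197), as SMAD6 and SMAD3 in direction. A noncoding gene between SMAD6 and SMAD3, AC110048.2, fell with TGFB1 (-1.86, limma adjusted p = 0.000316) and fell further with celastrol added (-0.66, limma adjusted p = 0.0185). Another there, AC087482.1, overlaps the start of SMAD3 and averaged 13.4 normalized reads. It had -0.73 (limma adjusted p = 0.182) and 1.69 (limma adjusted p = 0.0029). These genes were picked after their values were seen.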
